A study of Mus musculus with 31 samples.

Results

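The 42 genes described here encode regulators of chromatin that are mutated in Mendelian neurodevelopmental disorders, or their close partners, with the writers and erasers of H3K4 methylation left out. They were chosen by name from 21896 protein-coding genes, with earlier results of these data known, and their trimethylated histone H3 lysine 4 (H3K4me3) was followed in the mouse hippocampus. The series asked how this mark differs in mice that carry 1 interrupted copy of Kmt2d, the model of Kabuki syndrome, and how it differs after TAK-418, an inhibitor of the H3K4 demethylase LSD1. Chromatin immunoprecipitation and sequencing had been done on 16 mice, which gave 16 H3K4me3 libraries and 15 libraries of monomethylated lysine 4 (H3K4me1), each with an Abcam antibody.

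The mice were C57BL6 and 30 days old, with the genotype KMT2D+/bGeo (heterozygotes) or KMT2D+/+ (wild types). They had been given TAK-418 by gavage at 1 mg/kg/day for 2 weeks in methylcellulose, or the methylcellulose vehicle alone. The 4 groups were heterozygote TAK-418, heterozygote vehicle, wild type TAK-418 and wild type vehicle, each with 4 H3K4me3 libraries from 4 mice. The labels name no other engineered allele in either genotype, and the sources used here do not state the sex of the mice. The samples were whole hippocampus, so fewer cells with a mark and less of the mark per cell cannot be told apart.

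H3K4me3 is laid down at the start sites of active and poised genes, and its width at a promoter is known to vary with cell identity and with how steadily a gene is transcribed. KMT2D, the enzyme missing 1 allele here, is best known for monomethylation at enhancers, and LSD1 removes the first and second methyl groups of H3K4, which lie upstream of the trimethyl state. The genes examined here act on other layers of chromatin: histone acetylation, methylation of H3K27, H3K36 and H3K9, DNA methylation, and the sliding or eviction of nucleosomes by ATP-driven remodelers. Many of their disorders share intellectual disability with Kabuki syndrome, among them Rubinstein-Taybi syndrome (CREBBP and EP300), Coffin-Siris syndrome (ARID1B and other BAF subunits) and CHARGE syndrome (CHD7).

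The promoters of these genes were rich in CpG, a feature of most mammalian promoters that carry H3K4me3. RefSeq's table for GRCm38.p6, the assembly behind mm10, held promoter entries of 250 bases before and 50 after a start for 31 of the 42 genes, 40 entries in all. These entries held a median of 29.5 CpG, against 13 over all 21005 entries of protein-coding genes, and their median GC share was 69.5%, against 56.7%. All entries include those of genes with no peak, and a comparison limited to genes with a peak was not made. Some of the 40 entries overlap one another, as at Kat6b and Kansl1. The sequences below are the 250 bases upstream of 8 starts, 5′ to 3′ on the gene's strand, with each CpG in capitals. The first 5 overlap a region that the authors listed as different between groups, and the last 3 show a start with no peak, a start of the same gene with a peak, and a CpG-poor promoter whose gene had a peak in 2 of 4 libraries with long peak lists.
Crebbp, chr16:4213405-4213654, minus strand: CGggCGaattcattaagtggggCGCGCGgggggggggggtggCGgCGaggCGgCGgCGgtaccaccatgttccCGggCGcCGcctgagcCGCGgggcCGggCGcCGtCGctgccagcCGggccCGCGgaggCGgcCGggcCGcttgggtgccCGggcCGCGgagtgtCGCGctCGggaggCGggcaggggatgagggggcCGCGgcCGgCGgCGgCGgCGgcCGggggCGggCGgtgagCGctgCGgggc
Ep300, chr15:81585964-81586213, plus strand: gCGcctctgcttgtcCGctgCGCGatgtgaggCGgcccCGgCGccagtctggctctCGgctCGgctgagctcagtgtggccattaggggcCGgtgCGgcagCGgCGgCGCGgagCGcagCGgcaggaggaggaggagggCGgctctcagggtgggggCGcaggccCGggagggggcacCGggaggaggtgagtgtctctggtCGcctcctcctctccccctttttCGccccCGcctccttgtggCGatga
Arid1b, chr17:4994824-4995073, plus strand: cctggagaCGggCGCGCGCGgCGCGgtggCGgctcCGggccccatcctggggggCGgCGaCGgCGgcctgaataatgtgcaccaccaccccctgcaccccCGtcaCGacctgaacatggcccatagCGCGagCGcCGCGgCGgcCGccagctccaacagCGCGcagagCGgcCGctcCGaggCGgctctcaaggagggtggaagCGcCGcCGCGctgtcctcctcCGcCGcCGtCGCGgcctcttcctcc
Ezh1, chr11:101226464-101226713, minus strand: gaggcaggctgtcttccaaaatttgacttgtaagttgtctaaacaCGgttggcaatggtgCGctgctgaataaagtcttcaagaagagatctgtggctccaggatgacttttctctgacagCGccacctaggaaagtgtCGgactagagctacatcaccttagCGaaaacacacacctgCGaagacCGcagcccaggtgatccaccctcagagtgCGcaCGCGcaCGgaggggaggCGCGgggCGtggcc
Ehmt1, chr2:24919610-24919859, minus strand: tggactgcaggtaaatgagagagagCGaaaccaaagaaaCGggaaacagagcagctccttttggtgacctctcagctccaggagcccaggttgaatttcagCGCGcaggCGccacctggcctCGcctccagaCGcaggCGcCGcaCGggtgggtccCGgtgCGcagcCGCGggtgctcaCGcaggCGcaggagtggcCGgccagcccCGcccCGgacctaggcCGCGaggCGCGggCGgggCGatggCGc
Dnmt1, annotated gene end, chr9:20959889-20960138, minus strand: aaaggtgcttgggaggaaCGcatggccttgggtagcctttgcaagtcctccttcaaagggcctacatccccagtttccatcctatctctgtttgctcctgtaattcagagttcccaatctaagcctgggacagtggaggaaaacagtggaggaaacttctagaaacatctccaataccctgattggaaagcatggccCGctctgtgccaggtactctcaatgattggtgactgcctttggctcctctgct
Dnmt1, inner start, chr9:20952624-20952873, minus strand: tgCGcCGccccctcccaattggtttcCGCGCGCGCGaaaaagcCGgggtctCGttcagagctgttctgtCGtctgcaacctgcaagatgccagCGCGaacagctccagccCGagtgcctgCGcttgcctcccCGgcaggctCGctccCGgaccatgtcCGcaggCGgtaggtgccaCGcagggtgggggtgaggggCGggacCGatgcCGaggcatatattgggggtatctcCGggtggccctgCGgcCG
Hdac8, chrX:102505159-102505408, minus strand: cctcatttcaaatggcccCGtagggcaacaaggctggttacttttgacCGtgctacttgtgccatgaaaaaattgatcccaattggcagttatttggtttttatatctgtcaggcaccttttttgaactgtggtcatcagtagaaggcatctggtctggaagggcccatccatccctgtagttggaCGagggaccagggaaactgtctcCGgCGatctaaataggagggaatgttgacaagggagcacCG

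These 250 bases held 44 CpG at Crebbp, 37 at Arid1b, 26 at Ehmt1, 25 at Ep300 and 14 at Ezh1. They held 6 CpG at Hdac8, and at Dnmt1 they held 2 CpG at the annotated end and 26 at the inner start. The hexamer GGGCGG, a GC box bound by SP factors, was searched on both strands and lay in 80.0% of the 40 entries of these genes and in 46.6% of all 21005 entries. TATAAA lay in 2.5% of their entries, the single one of Hdac8, and in 12.5% of all entries. All entries again include those of genes with no peak. Such matches describe letters only, and binding was not measured.

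H3K4me3 peaks were found at the ends of 39 of these 42 genes, and for 20 of the 39 only in the libraries with long peak lists. A peak was counted at a gene when any base of it lay within 2 kb of either annotated gene end. In each group, 1 H3K4me3 library stood apart from the other 3: it held 13343 to 16750 peaks, against 302 to 2281 in the other 12 libraries. The 4 libraries with long lists were heterozygote TAK-418 replicate 3, heterozygote vehicle replicate 2, wild type TAK-418 replicate 3 and wild type vehicle replicate 3. The index sequences in the labels place these 4 in other index sets (1 and 2) than the 12 (3 and 4). All 15 H3K4me1 libraries are also in index sets 1 and 2, and they held 88 to 456 peaks each. The part of the index set was not tested. In the long lists 38 or 39 of the 42 genes had a peak at an end, 90.5% to 92.9%, against 55.0% to 60.1% of all protein-coding genes. In the 12 short lists, 0 to 11 of the 42 did. The peak lists hold no read counts, so the depth behind them is unknown, and the lack of a peak in a short list is not evidence that the mark was absent.

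**Figure D1:**
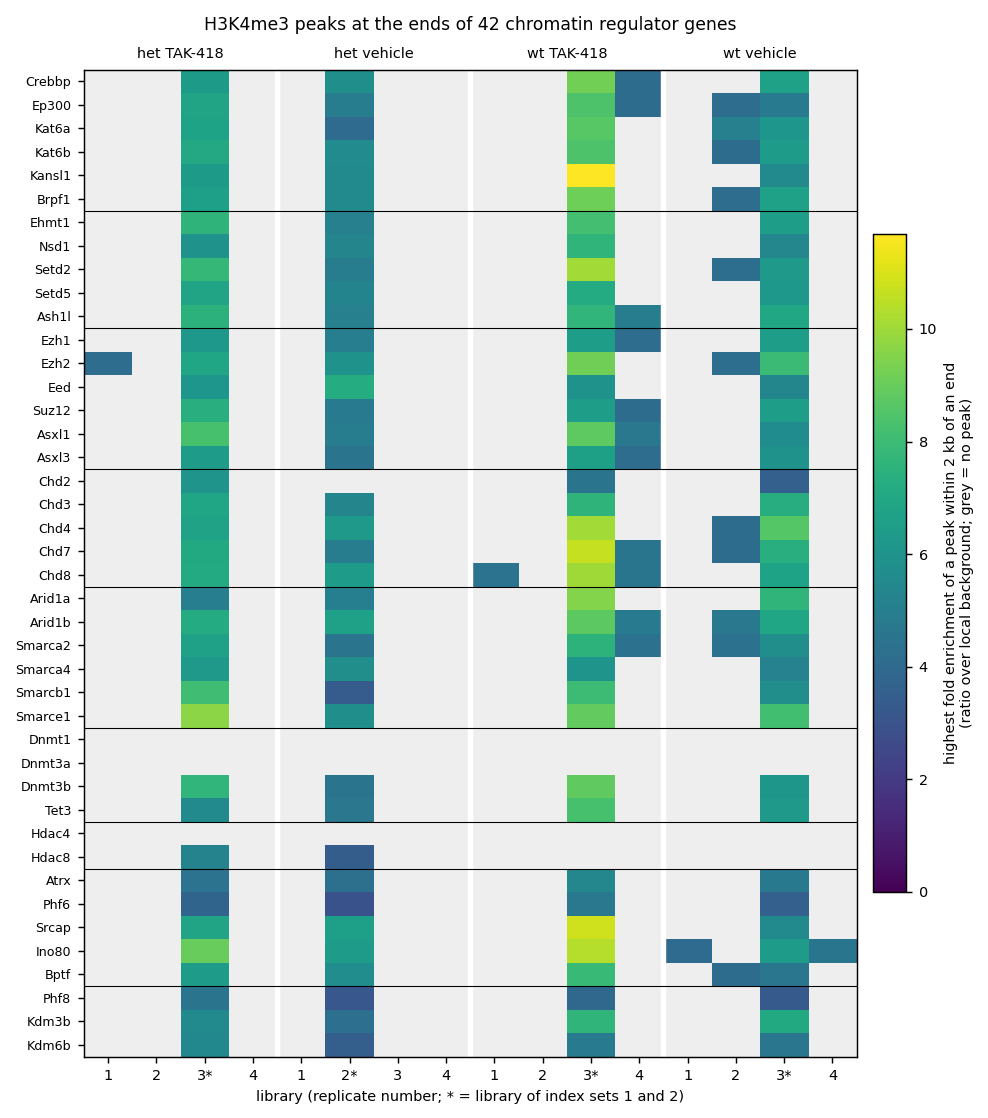
H3K4me3 peaks at the 42 genes (rows, grouped by role) in the 16 libraries (columns, 4 per group); colour gives the highest fold enrichment over local background, a ratio, of any peak within 2 kb of an end, and grey marks no peak. The 4 columns marked with an asterisk are nearly filled, with 38 or 39 genes each, while the other 12 hold 0 to 11, and Dnmt1, Dnmt3a and Hdac4 are grey throughout.

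Of the 42 genes, 37 had an end peak in all 4 long lists, 2 in some of them and 3 in none. The 2 were Chd2, a remodeler mutated in childhood epilepsy, with a peak in 3 lists and none in heterozygote vehicle, and Hdac8, the deacetylase that recycles cohesin, with a peak in heterozygote TAK-418 (0.574 kb wide, 5.22-fold) and in heterozygote vehicle (0.457 kb, 3.47-fold) and none in either wild type list. The 3 with none were Dnmt1, the maintenance DNA methyltransferase, Dnmt3a, a de novo DNA methyltransferase abundant in neurons, and Hdac4, a class II deacetylase that shuttles between cytoplasm and nucleus. All 3 had a peak in 4 of 4 long lists at a start inside the annotated gene. At Dnmt1 a pair of inner starts lay 6909 and 7265 bp from the nearest gene end, under peaks of 0.746 to 1.06 kb and 5.62- to 8.51-fold enrichment. At Dnmt3a it lay 5421 bp inside, under peaks of 2.37 to 2.72 kb, and at Hdac4 15361 bp inside, under peaks of 1.52 to 1.95 kb. The sequence printed above for the inner start of Dnmt1 is that of the start 7265 bp inside, and it holds more CpG than the unmarked end.

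In the 12 short lists, 19 of the 42 genes had a peak at least once, 7 had one in 2 libraries and none had one in 3 or more. The 7 were Ep300, a histone acetyltransferase, Ezh2, the H3K27 methyltransferase of Polycomb repressive complex 2, the remodelers Chd7, Chd8 and Ino80, and the BAF subunits Arid1b and Smarca2. Of the peaks of these 19 genes, most came from a pair of libraries: wild type TAK-418 replicate 4 and wild type vehicle replicate 2 held 11 genes each. Of the remaining 10 short lists, 1 in heterozygote TAK-418 held a peak at Ezh2, 1 in wild type TAK-418 at Chd8, and 2 in wild type vehicle at Ino80. The 3 short lists of heterozygote vehicle held none. The peak of Chd8 in wild type TAK-418 replicate 1 lay at its 3′ end, within 2 kb of an end of the neighbouring gene Supt16. That of Chd4 in wild type vehicle replicate 2, at chr6:125132077-125132474 (mm10), also lay past the 3′ end of its gene. The peaks of these 19 genes were 0.239 to 1.617 kb wide.

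Where they were measured, the peaks of these genes were wider than those of most genes. In heterozygote TAK-418 the median width was 1.64 kb over these genes and 1.13 kb over all genes with a peak. The same medians were 1.53 and 0.997 kb in heterozygote vehicle, 1.74 and 1.14 kb in wild type TAK-418, and 1.51 and 0.950 kb in wild type vehicle. In each list 33 or 34 of the 38 or 39 genes exceeded the median of all genes, and 22 to 25 exceeded its upper quartile. With 1 long list per group these widths have no replicate, and they are not compared between groups. Median fold enrichment was also above that of all genes in each list, by less: 6.73 against 6.15 in heterozygote TAK-418, 5.06 against 4.32 in heterozygote vehicle, 8.12 against 6.33 in wild type TAK-418 and 6.26 against 5.49 in wild type vehicle.

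**Figure D2:**
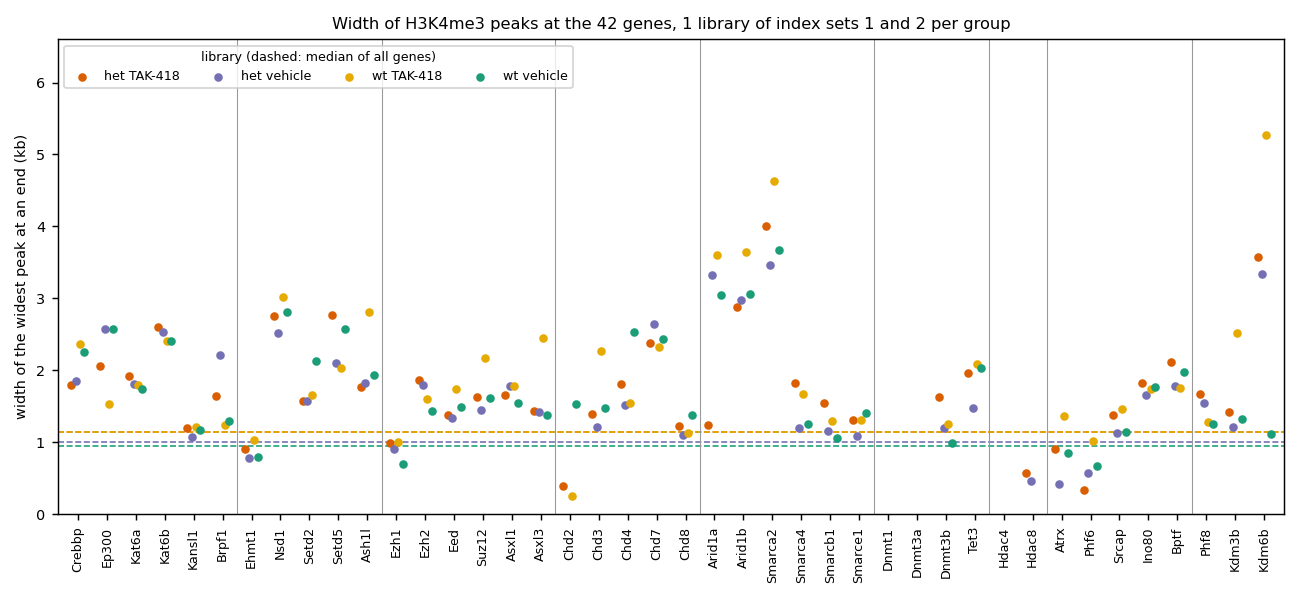
Width in kb of the widest H3K4me3 peak at an end of each gene in the long list of each group (points; groups in the order of the legend), with the median over all genes with a peak in that list as a dashed line. Most points lie above the lines, Smarca2 at 3.47 to 4.63 kb in all 4 lists, and the X-linked Phf6 and Hdac8 lie below the line of their list.

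Of the 5 widest medians over the 4 long lists, 3 were of subunits of BAF, the complex of SWI/SNF remodelers. The median was 3.83 kb at Smarca2 (an ATPase of BAF), 3.46 kb at Kdm6b (an H3K27 demethylase), 3.19 kb at Arid1a and 3.02 kb at Arid1b (the mutually exclusive DNA-binding subunits of BAF), and 2.78 kb at Nsd1 (the H3K36 methyltransferase of Sotos syndrome). Kdm6b held the widest single peak, 5.28 kb, and the largest range, down to 1.11 kb, and its widest peak lay at different ends of the gene in different libraries. The same held for Kdm3b and Brpf1. At Arid1a the widest peak lay at different places near the same end, and the other 35 genes with a peak had their widest one at 1 shared place. For Chd8 that place was the 3′ end, and the peak at its start was 0.898 to 1.13 kb wide. By role, the median over genes was 2.24 kb for BAF genes, 1.93 kb for acetyltransferases and partners, 1.88 kb for histone lysine methyltransferases, 1.53 kb for Polycomb genes and 1.43 kb for CHD remodelers. Not all BAF genes were wide: Smarcb1 had a median of 1.22 kb and Smarca4 of 1.46 kb, and Smarce1 ranged over 1.09 to 1.40 kb.

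The narrowest medians were those of Chd2 (0.388 kb), Hdac8 (0.516 kb) and Phf6 (0.619 kb), a nucleolar reader of chromatin. By fold enrichment, 4 of the 5 lowest genes were the 4 on the X chromosome: Phf8 (a histone demethylase) at 3.62, Phf6 at 3.68, Hdac8 at 4.34 and Atrx (a remodeler of heterochromatin) at 4.58, with the autosomal Chd2 at 4.51. Over all genes the X-linked ones also had lower enrichment than the autosomal ones in the same list: 4.51 against 6.19 in heterozygote TAK-418, 3.34 against 4.35 in heterozygote vehicle, 4.33 against 6.41 in wild type TAK-418 and 4.19 against 5.53 in wild type vehicle. Peaks on the Y chromosome were present in the long lists of heterozygote TAK-418 (10), heterozygote vehicle (29) and wild type TAK-418 (19) and absent from that of wild type vehicle (0). Over the 4 H3K4me3 libraries of each group, Y peaks lay in 3 of heterozygote TAK-418 and 2 of heterozygote vehicle. They lay in 2 of wild type TAK-418 and 1 of wild type vehicle. The groups may thus differ in sex. The part of sex in the X-linked values and in the score comparisons below was not tested. The highest median enrichments were 8.51 at Smarce1, 7.70 at Ino80 and 7.66 at Chd4, the ATPase of the NuRD complex.

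Markers of the cell types of the hippocampus were looked up in the same long lists. Of 7 excitatory neuron markers 5 or 6 had a peak in each long list, against 2 or 3 of 6 inhibitory, 1 to 4 of 6 astrocyte, 3 to 5 of 7 oligodendrocyte lineage, 0 or 1 of 6 microglial, 1 to 3 of 5 vascular, 2 of 4 choroid plexus and 0 of 4 blood markers. In the lists of differential regions described next, 3 of these markers appeared, 2 of the 6 of astrocytes and 1 of the 4 of choroid plexus. Over the same lists, 27.7% of all 13829 protein-coding genes with an end peak had a region at an end. The count is no result about these cell types, whose part in the results was not tested.

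The authors had deposited a list of differential H3K4me3 regions for each of 4 comparisons, with 1 whole-number score per library and a p of at most 0.05 of their own. Over the 4 lists, 23 of the 42 genes had a region at an end in at least 1 list, 42 regions in all, and 19 had none. The 23 are 59.0% of the 39 genes with an end peak, where 27.7% of all 13829 protein-coding genes with one had such a region; these genes were also wider than most, and the part of width was not tested. The 19 were Kat6b, Hdac4, Hdac8, Eed, Asxl3, Nsd1, Setd5, Kdm6b, Phf8, Dnmt1, Dnmt3a, Arid1a, Smarca2, Smarca4, Smarcb1, Chd2, Atrx, Phf6 and Bptf, which include all 4 X-linked genes and 4 of the 6 BAF genes. Of the 19, Arid1a, Smarca2, Dnmt3a, Nsd1 and Hdac4 had listed regions inside the gene, past the 2 kb window, which are described below. Those of Smarca2 began 2128 or 2228 bp from its start, and those of Arid1a 2819 bp or more. The regions were short, 300 to 1900 bp with a median of 550.0 bp, and each of the 42 lay over a peak in all 4 long lists. For the 17 genes of known strand, 31 of 32 regions lay within 2 kb of the start, and 30 of these 31 had their midpoint downstream of it; the median midpoint of the 31 lay 569.5 bp downstream. The exception was the region of Chd8, which lay at its 3′ end beside Supt16. Regions at Chd3, Chd4, Ezh2, Srcap, Kat6a, Asxl1, Ash1l, Brpf1 and Smarce1 also lay within 2 kb of an end of another annotated gene. At Chd3, Chd4, Ezh2, Srcap and Kat6a that other end was nearer than the gene's own. The scores name no library, so each group's 4 scores are given in file order and are unordered replicates. How the scores were scaled, and by which tool, the sources used here do not say.

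In every group 1 of the 4 score positions stood above the rest, being the highest at 77.7% to 98.8% of the regions at gene ends. It was position 2 in heterozygote vehicle and position 3 in the other groups, the same numbers that the libraries with long peak lists have in accession order, but the lists do not name the library of a score, so none was assigned. The spread within a group was therefore large, and with 4 scores per group the smallest p of the exact permutation test is 0.0286. Each region was tested again without that position in each group, a choice made after the data were seen, where 3 against 3 scores allow no p below 0.1, and with that position as a block in limma. No region of the 42 genes passed limma's adjusted p of 0.05 in any of the 4 comparisons, with or without the block, and the directions below are those of the authors' deposited lists with the scores behind them.

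Heterozygote vehicle was compared with wild type vehicle to ask what the lost Kmt2d allele does to the mark. In the authors' deposited list, 11 of these genes had a lower region in heterozygotes and 0 a higher one. The 11 are 28.2% of the 39 with a peak, where 11.0% of all protein-coding genes with a peak had a lower region and 0.557% a higher one. Since these genes also had wider peaks than most, and the part of width in this share was not tested, it describes the genes and is not a test of them as a group. The median ratio of the mean scores, heterozygote to wild type, was 0.595 over the 11 genes and 0.617 over all 1733 regions listed lower.

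By role, the 11 were 3 Polycomb genes (Suz12, Ezh2 and Asxl1), 3 histone lysine methyltransferases and demethylases (Ehmt1, Setd2 and Kdm3b), 2 CHD remodelers (Chd3 and Chd4), and Tet3, Brpf1 and Arid1b. Suz12, the core subunit of Polycomb repressive complex 2, had scores of 79, 118, 23 and 36 in heterozygotes, against 81, 100, 124 and 131 in wild types. Its groups overlapped only through the heterozygote score of 118: the means were 64.0 ± 43.2 and 109 ± 22.9 (SD, n = 4 each), with p = 0.114 (two-sided exact permutation test). Asxl1, which activates the deubiquitinase of H2A, had 36, 158, 64 and 23 in heterozygotes, against 84, 167, 157 and 103 in wild types. Again 3 of the heterozygote scores lay under all 4 of wild type (p = 0.143, exact permutation). Ezh2 had 41, 66, 83 and 7 in heterozygotes, against 27, 103, 154 and 63 in wild types, with wide overlap.

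Tet3, which oxidises 5-methylcytosine in neurons, had the most even scores and the lowest exact p of the 11. Its scores were 52, 77, 63 and 65 in heterozygotes, against 76, 80, 163 and 113 in wild types. The single heterozygote score of 77 lay above the lowest of wild type, 76, and the difference of mean log2(score + 1) was -0.68 (p = 0.0571, exact permutation; limma's adjusted p = 0.575). Kdm3b, an H3K9 demethylase, had 45, 109, 68 and 91 in heterozygotes, against 84, 132, 185 and 160 in wild types (p = 0.0857, exact permutation). Chd3, a NuRD ATPase, had the largest −log10 p of the 11 in the authors' deposited list, 5.01, and scores of 49, 174, 45 and 106 in heterozygotes, against 79, 145, 321 and 150 in wild types. Its region also lay within 2 kb of an end of the predicted gene Gm32483, and its groups overlapped, with p = 0.200 (exact permutation).

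Arid1b had the highest mean scores of the 11 in both groups, 233, 533, 279 and 135 in heterozygotes, against 199, 429, 563 and 367 in wild types, over a region 1900 bp long. The groups overlapped throughout, with a ratio of means of 0.757, the one nearest 1. Brpf1, the scaffold of the MOZ acetyltransferase, had 59, 180, 1 and 77 in heterozygotes, against 88, 124, 163 and 112 in wild types. The log2 difference of -1.73 at Brpf1, the largest of the 11, leaned on the heterozygote score of 1. Ehmt1 (an H3K9 methyltransferase, Kleefstra syndrome), Chd4 and Setd2 (the enzyme that trimethylates H3K36) had ratios of 0.685, 0.665 and 0.690, with overlapping scores and exact p between 0.229 and 0.343.

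**Figure D3:**
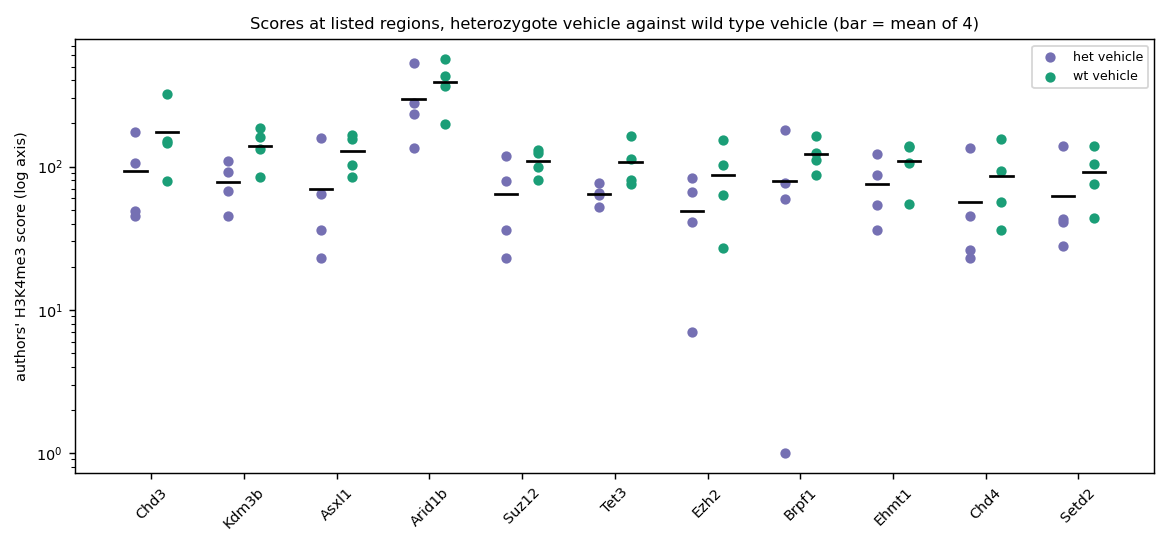
Authors' H3K4me3 scores (log axis) at the region of each of the 11 genes listed lower, 4 heterozygote vehicle scores left and 4 wild type vehicle scores right, with a bar at each mean; genes run from the largest to the smallest −log10 p of the list. Every mean is lower in heterozygotes, which the listing fixed beforehand, since the genes were picked from these same scores. Every pair of groups overlaps, with Tet3 overlapping by the least, 77 against 76.

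None of the 11 had groups without overlap, where 2.03% of all 2015 listed regions did, and none had an unadjusted limma p under 0.05, where 4.07% did. Without the highest position of each group, 5 of the 11 did not overlap (Asxl1, Suz12, Tet3, Brpf1 and Setd2), where 25.6% of all listed regions did not. All 11 stayed lower in heterozygotes by mean log2 score under that choice, with a median difference of -0.92. They were listed lower from the same scores, so this was largely fixed beforehand. The share of all listed regions that kept their direction was not counted. Of the 11, 2 had an unadjusted limma p under 0.05, where 17.7% of regions did. With that position as a block 1 of the 11, Asxl1, had one, where 20.3% of regions did.

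By peak presence, of 37 of these genes 12 had a peak in fewer heterozygote than wild type libraries and 0 in more, where 20.1% of the 11410 genes tested had one in fewer and 0.999% in more. With the peaks of wild type vehicle replicate 2 not counted, 1 of the 12 was left, Ino80, through replicates 1 and 4, and 5.78% of all genes tested. Fisher's exact test on these counts could call nothing in any of the 4 comparisons: only a split of 4 against 0 libraries gives a p under 0.05, and with 1 long list in every group 0 genes split so. It therefore says nothing about these genes.

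TAK-418 was compared with vehicle in heterozygotes to ask how LSD1 inhibition moves the mark where Kmt2d is short. In the authors' deposited list, 2 of these genes had a lower region with TAK-418, Chd4 and Ino80, and 1 a higher one, Chd7. They are 5.13% and 2.56% of the 39 genes with a peak, near the 3.36% and 3.45% of all protein-coding genes with a peak. None of the 11 genes listed lower in heterozygotes had a higher end region with TAK-418. With 3.45% of all genes with a peak listed higher, this is no result about the 11 genes. The share among all genes listed lower in heterozygotes was not counted. The pair of lists shares the heterozygote vehicle libraries, so a high or low score there enters both.

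Chd7, the CHARGE syndrome remodeler, had scores of 94, 78, 162 and 63 with TAK-418, against 52, 144, 46 and 28 with vehicle. All 4 treated scores lay above 3 of the 4 vehicle scores, and the means were 99.2 ± 43.7 and 67.5 ± 52.0 (SD, n = 4 each; p = 0.257, exact permutation). A second end region of Chd7 was also listed higher. It had 70, 12, 130 and 92 with TAK-418, against 32, 86, 34 and 54 with vehicle (p = 0.8, exact permutation). Ino80, the ATPase that removes H2A.Z, had 21, 3, 196 and 13 with TAK-418, against 39, 206, 83 and 38 with vehicle. Of the treated scores 3 lay under all 4 vehicle scores and 1 near their top (log2 difference -1.70, p = 0.229, exact permutation). Chd4 had 79, 10, 160 and 59 with TAK-418, against 88, 248, 62 and 71 with vehicle, and overlapped widely. None of the 3 had groups without overlap, where 0.35% of the 1715 listed regions did, and none had an unadjusted limma p under 0.05, where 0.991% did. Without the highest position Ino80 and Chd7 did not overlap, where 21.5% of regions did not, and 1 of the 3, Ino80, had an unadjusted limma p under 0.05, where 12.7% did. With that position as a block Ino80 again was the 1 of the 3, where 11.4% of regions were. Of 38 of these genes, 1 had a peak in more treated than vehicle libraries and 0 in fewer, where 1.4% of the 11782 genes tested had one in more and 1.52% in fewer.

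TAK-418 was compared with vehicle in wild types to ask what the compound does where Kmt2d is intact. In the authors' deposited list, 10 of these genes had a higher region with TAK-418 and 3 a lower one. The 10 are 25.6% of the 39 genes with a peak, where 9.28% of all protein-coding genes with a peak had a higher region, and the 3 are 7.69%, where 6.94% had a lower one. The median ratio of mean scores was 1.46 over the 10 and 1.47 over all 1769 regions listed higher. For the 3 it was 0.714, against 0.669 over all 1011 listed lower.

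The 10 held both paralogous coactivators and several of their relatives: Crebbp, Ep300 and Kansl1 among the acetyltransferases and partners, Ezh1 and Asxl1 among the Polycomb genes, the methyltransferases Ash1l (histone) and Dnmt3b (DNA), and the remodelers Chd7, Chd8 and Srcap, the last of which deposits H2A.Z. Crebbp had scores of 120, 119, 563 and 164 with TAK-418, against 49, 132, 326 and 93 with vehicle, in a region that covers the promoter printed above. The means were 242 ± 215 and 150.0 ± 122 (SD, n = 4 each), with 1 score far above the rest in each group, and the exact permutation p was 0.400. Ep300 had 59, 105, 302 and 98 with TAK-418, against 53, 106, 179 and 37 with vehicle, in a region that ends 9 bp before the annotated gene start and holds nearly all of the printed promoter. Its groups overlapped throughout (p = 0.486, exact permutation).

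Ash1l, an H3K36 methyltransferase, showed the largest ratio of the 10. It had 50, 79, 125 and 44 with TAK-418, against 6, 38, 71 and 22 with vehicle, so that all 4 treated scores exceeded 3 of the 4 vehicle scores. The ratio of means was 2.18 and the log2 difference 1.42 (p = 0.114, exact permutation), and the region lay within 2 kb of an end of Dap3 as well. Ezh1, the PRC2 methyltransferase of postmitotic cells, had 60, 96, 175 and 90 with TAK-418, against 56, 64, 122 and 17 with vehicle. It overlapped through the vehicle scores of 64 and 122 (ratio 1.62, p = 0.257, exact permutation). Chd7 had 91, 216, 437 and 193 with TAK-418, against 84, 96, 247 and 194 with vehicle. It was the 1 gene of the 42 listed in the same direction with TAK-418 in both genotypes. Its wild type region held all of the second heterozygote region and only part of the first. The share of all genes so listed was not counted. The heterozygote and wild type comparisons have no library in common, and the difference between the genotypes was not tested.

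The other 5 were Kansl1, Asxl1, Dnmt3b, Srcap and Chd8, and in the first 4 the direction turned on 1 high TAK-418 score. Kansl1, a scaffold of the NSL acetyltransferase complex, had 122, 101, 490 and 116 with TAK-418, against 140, 121, 189 and 142 with vehicle: 3 treated scores lay near or under the lowest vehicle score, 121, and the ratio of means of 1.40 came from 490. Without the highest position its log2 difference was -0.25, on the other side of 0 from the listed direction. Asxl1, Dnmt3b and Srcap kept their sign without the highest position of both groups, at 0.09, 0.18 and 0.28, but crossed 0 when the third TAK-418 score alone was left out, at -0.10, -0.09 and -0.04. Chd8 had 216, 31, 257 and 109 with TAK-418, against 112, 49, 241 and 48 with vehicle, at the 3′ end near Supt16.

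The 3 genes listed lower with TAK-418 in wild types were Suz12, Arid1b and Smarce1. Suz12 had 75, 20, 201 and 79 with TAK-418, against 96, 122, 161 and 162 with vehicle. Arid1b had 109, 92, 443 and 137 with TAK-418, against 148, 278, 422 and 246 with vehicle. Smarce1, a BAF subunit with an HMG domain, had 107, 123, 421 and 108 with TAK-418, against 127, 165, 391 and 264 with vehicle. In each of them 3 treated scores lay under all 4 vehicle scores and 1 lay above all 4, and the exact permutation p were 0.257, 0.286 and 0.486. Suz12 and Arid1b were also listed lower in heterozygote vehicle, and Asxl1, listed higher here, was listed lower there, in comparisons that share the wild type vehicle libraries.

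**Figure D4:**
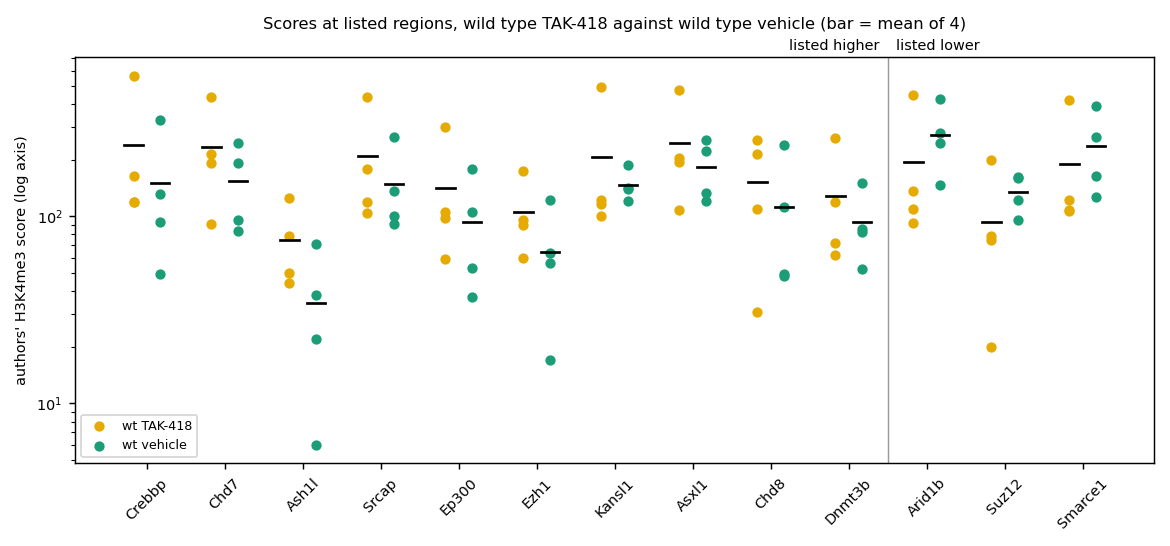
Authors' H3K4me3 scores (log axis) at the regions of the 13 genes listed in wild types, 4 TAK-418 scores left and 4 vehicle scores right, with a bar at each mean; the 10 genes listed higher stand left of the grey line and the 3 listed lower right of it. In most genes 1 TAK-418 score, such as 563 at Crebbp and 490 at Kansl1, lies far above the other 3.

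None of the 13 had groups without overlap, where 0.54% of the 2780 listed regions did, and none had an unadjusted limma p under 0.05, where 2.37% did. Without the highest position, all 3 of the lower genes and 1 of the 10 higher ones (Ash1l) did not overlap, where 21.0% of listed regions did not, and 1 of the 13 had an unadjusted limma p under 0.05, where 14.2% did. With that position as a block 1 of the 13, Ash1l, had one, where 11.6% of regions did. Of 38 of these genes, 7 had a peak in more TAK-418 than vehicle libraries and 8 in fewer, where 7.33% of the 11912 genes tested had one in more and 15.9% in fewer. With the peaks of wild type TAK-418 replicate 4 and wild type vehicle replicate 2 not counted, 1 was left in each direction. Of all genes tested, 1.62% then had a peak in more and 5.58% in fewer.

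Heterozygote TAK-418 was compared with wild type vehicle to ask what difference is left after treatment. In the authors' deposited list, 13 of these genes had a lower region in treated heterozygotes and 0 a higher one. The 13 are 33.3% of the 39 with a peak, where 14.4% of all protein-coding genes with a peak had a lower region and 1.16% a higher one. They were the 11 genes listed lower in heterozygote vehicle, with Ino80 and Kat6a, an acetyltransferase, added. The lists share the wild type vehicle libraries, so the 11 shared genes are not an independent repeat. The share of all genes listed lower in both lists was not counted. The median ratio of means was 0.672 over the 13, against 0.651 over all 1972 regions listed lower.

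With all positions and no block, Ino80 was the 1 gene of the 42 with an unadjusted limma p under 0.05 in any comparison. It had 26, 12, 258 and 15 in treated heterozygotes, against 94, 126, 160 and 91 in wild type vehicle. The treated scores split, 3 far under and 1 far above all of wild type, with a log2 difference of -1.74 (limma's p = 0.0469 unadjusted and 0.613 adjusted, exact permutation p = 0.143), where 6.39% of the 2722 listed regions had such an unadjusted p. Tet3 had the largest −log10 p of the 13 in the authors' deposited list, 5.24, and scores of 114, 58, 308 and 170 in treated heterozygotes, against 188, 187, 385 and 302 in wild type vehicle (p = 0.171, exact permutation). Kdm3b had 99, 79, 182 and 40, against 103, 169, 245 and 206 in wild type vehicle, with p = 0.114 (exact permutation). At both genes the 3 lower treated scores lay under all of wild type.

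None of the 13 had groups without overlap, where 0.404% of listed regions did. Without the highest position, 6 of the 13 did not overlap (Tet3, Kdm3b, Arid1b, Suz12, Ino80 and Brpf1), where 36.1% of regions did not. All 13 stayed lower, which listing from the same scores largely fixed beforehand. Under that choice 3 of the 13 had an unadjusted limma p under 0.05, where 29.9% of regions did. With that position as a block 1 of the 13, Ino80, had one, where 19.2% of regions did. Over the whole list, with all positions and no block, limma called 8 regions at an adjusted p under 0.05, 0.294% of the 2722, none of them at these genes. By peak presence, 11 of 38 genes had a peak in fewer treated heterozygote than wild type vehicle libraries and 0 in more, where 19.4% of the 11815 genes tested had one in fewer and 0.956% in more. With the peaks of wild type vehicle replicate 2 not counted, 1 was left in fewer, Ino80, and 1 was in more. Of all genes tested, 5.57% then had a peak in fewer and 1.46% in more.

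**Figure D5:**
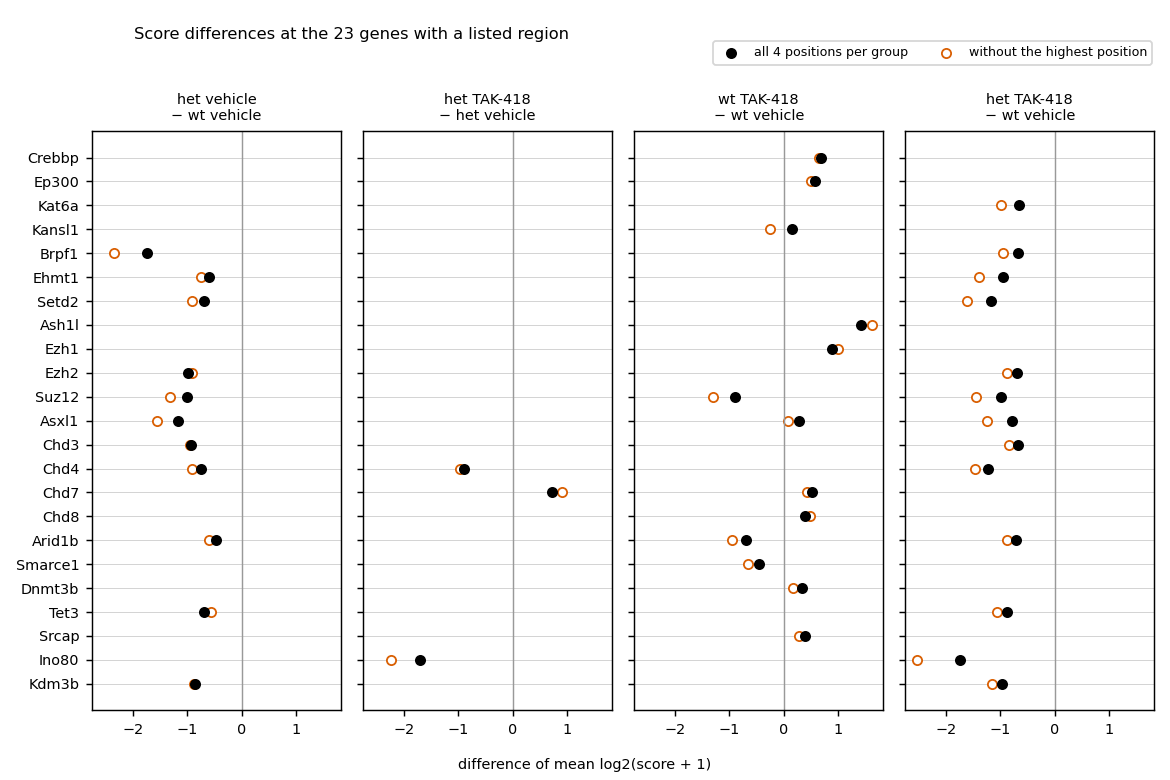
Difference of mean log2(score + 1) at each of the 23 genes with a listed end region (rows) in the 4 comparisons (panels), with all 4 score positions per group (filled) and without the highest position of each group (open). In the panels against wild type vehicle all 11 and 13 points of heterozygotes lie left of 0. Those genes were plotted because they were listed lower from the same scores, so that side was nearly fixed beforehand. In wild type TAK-418 the open point of Kansl1 crosses 0.

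A further 14 listed regions lay inside 5 of these genes, off the ends: Arid1a, Dnmt3a, Smarca2, Nsd1 and Hdac4. The 5 are 11.9% of the 42, where 3.7% did among the 14858 protein-coding genes that had a peak inside or at either end; the part of gene length was not tested. All 14 lay over a peak in all 4 long lists, and in all 14 the groups overlapped, with exact permutation p from 0.114 to 0.600. Smarca2 had the largest reduction of means, at a region beginning 2228 bp into the gene, with 41, 123, 56 and 4 in heterozygote vehicle, against 38, 120, 119 and 168 in wild type vehicle, a ratio of 0.503. An overlapping region was listed lower with TAK-418 in wild types, where Smarca2 had 26, 25, 212 and 103, against 57, 191, 212 and 253 with vehicle. The same region was listed lower in heterozygote TAK-418, with 111, 65, 263 and 17, against 57, 191, 203 and 253 in wild type vehicle.

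At Arid1a, a region that reached its inner promoter entry had 89, 149, 68 and 39 in heterozygote vehicle, against 135, 98, 213 and 151 in wild type vehicle (p = 0.114, exact permutation). At the same place in Arid1a a region was listed higher with TAK-418 in heterozygotes, with 145, 34, 248 and 110, against 84, 140, 70 and 38 with vehicle. A second region, which began 3919 bp from the start of Arid1a, was listed lower with TAK-418 in heterozygotes, with 75, 2, 205 and 87, against 104, 261, 202 and 67 with vehicle. A region overlapping the second was listed lower in heterozygote TAK-418, with 77, 8, 232 and 71, against 62, 91, 246 and 171 in wild type vehicle. Of the 4 regions of Arid1a, 3 were thus listed lower and 1 higher.

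Dnmt3a was listed in all 4 comparisons, lower in 3 and higher in 1. Its inner start had a region listed lower in heterozygote vehicle, with 106, 332, 252 and 140, against 155, 260, 493 and 337 in wild type vehicle. A shorter region within it was listed higher with TAK-418 in heterozygotes, with 106, 71, 190 and 83, against 43, 132, 114 and 36 with vehicle. Another part of it was listed lower with TAK-418 in wild types, with 34, 11, 174 and 55, against 24, 98, 194 and 74 with vehicle, a ratio of means of 0.703. A region about as long as the first was listed lower in heterozygote TAK-418, with 213, 162, 589 and 183, against 182, 308, 617 and 388 in wild type vehicle, a ratio of 0.767. These comparisons share the vehicle libraries of either genotype. Nsd1 had overlapping regions listed lower with TAK-418 in heterozygotes, with a ratio of 0.654, and higher with TAK-418 in wild types, with a ratio of 1.52. Hdac4 had 1 listed higher with TAK-418 in wild types, with 62, 34, 273 and 96, against 53, 37, 131 and 59 with vehicle.

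The complexes of these genes were followed in 133 partner genes outside the 42, of which 127 had an H3K4me3 peak. In heterozygote vehicle against wild type vehicle, 27 of the 127 were listed lower and 1 higher, 21.3% and 0.787%, where 11.0% and 0.557% of all genes with a peak were. With TAK-418 in heterozygotes 7 were listed higher and 7 lower, 5.51% each, where 3.45% and 3.36% of all genes were. With TAK-418 in wild types 17 were listed higher and 13 lower, 13.4% and 10.2%, where 9.28% and 6.94% of all genes were. In heterozygote TAK-418 against wild type vehicle 36 were listed lower and 1 higher, 28.3% and 0.787%, where 14.4% and 1.16% of all genes were. The partners listed lower in heterozygote vehicle were 6 of 15 SET domain and demethylase relatives, 5 of 22 acetyltransferase and deacetylase partners, 4 of 24 BAF partners, 4 of 24 Polycomb partners, 4 of 13 CHD and NuRD partners, 3 of 20 INO80, SRCAP and ISWI partners and 1 of 9 DNA methylation partners.

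Mta1, a NuRD subunit, had 38, 111, 35 and 29 in heterozygote vehicle, against 118, 67, 104 and 175 in wild type vehicle, the lowest p of the 3 partners with the largest −log10 p there (p = 0.0857, exact permutation). Bap1, the deubiquitinase partner of ASXL1, had 68, 88, 170 and 115 with TAK-418 in wild types, against 51, 16, 87 and 52 with vehicle, and Pcgf2, a Polycomb ring finger subunit, had 21, 31, 56 and 26, against 35, 105, 115 and 52 with vehicle. Bap1 overlapped by 1 vehicle score, of 87, with p = 0.0571 (exact permutation), and Pcgf2 through its treated score of 56, with p = 0.0857 (exact permutation). None of these partner regions passed limma's adjusted p, 0.575 for Mta1 and 0.779 for the other 2. These 3 had the lowest exact p of the partners picked by −log10 p per list and direction. The others picked had overlapping groups and p from 0.114 to 0.857 (exact permutation).

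Few H3K4me1 peaks lay at these genes, in peak lists that were short throughout. The 15 H3K4me1 lists held 88 to 456 peaks each, and 1 of the 42 genes had one at an end: Kat6a in heterozygote TAK-418 replicate 3, at chr8:22857765-22857997 (mm10), 0.233 kb wide and 5.25-fold enriched. A pair of others had 1 inside the gene in 1 library each, Arid1b in wild type TAK-418 and Tet3 in heterozygote vehicle. Over all protein-coding genes, 0.0731% to 0.297% had an H3K4me1 peak at an end in each list. Of the 4 lists of differential H3K4me1 regions, none held a region at or in any of the 42 genes. These lists held 212 to 394 regions per direction, and the share of all genes with one was not counted. None of the listed H3K4me3 regions at these genes lay in the 138 regions that recurred in at least 8 libraries of each mark.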

How the data were processed

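H3K4me3 and H3K4me1 were measured by ChIP-seq in 31 hippocampal libraries from 16 mice. The authors deposited 1 broad peak list per library, and the submitters' processing notes name mm10, MACS2, MACS and bedtools with no version or role; the sources used here do not name the aligner or the peak threshold. For each peak the deposited lists give a fold enrichment, which is a ratio over local background, and a −log10 p and −log10 q. Each deposited region of the authors' differential lists carried a −log10 p of at least 1.3 and a whole-number score per library, whose scaling the sources used here do not state; lists were therefore analysed one by one. No file holds read counts, so depth is unknown and no counting interval is given.

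Genes and promoter sequences came from RefSeq GRCm38.p6; strand was known for 31 of the 42 genes. A peak or region was assigned to a gene within 2 kb of either end. Scores were compared as log2(score + 1) with limma 3.58.1 (R 4.3.3), adjusted by Benjamini-Hochberg over all regions of a list, and per region by a two-sided exact permutation test; adjusted p under 0.05 was called. Peak presence was compared per gene by two-sided Fisher's exact test over genes that had a peak in 2 or more libraries and lacked one in 2 or more. Python 3.11.15 with pandas 2.3.3, numpy 2.4.6, scipy 1.17.1 and matplotlib 3.10.9 was used, and both fits were tested on simulated data. Replicates were different mice, numbered in accession order. Index sets were assigned from the index sequences in the labels, which do not name a kit.

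The members and gene lists were chosen with earlier results of these data known. Named with values were up to 10 members per list and direction by the authors' −log10 p, members without overlap between groups, members with no end peak, with a peak in at least 2 short lists, the 5 widest and 3 narrowest, and those with an H3K4me1 peak. A member with more than 1 end region in a list was given by the one with the largest −log10 p. The second region of Chd7 was added to these. Partners were picked by −log10 p, up to 3 per list and direction. Of these, only the 3 with the lowest exact permutation p were given with scores. Alternatives tried were windows of 1 and 5 kb, the gene start alone, stricter thresholds, another overlap, pseudocount 10, a filter on mean scores under 20, centred score positions, limma with a trend, each replicate left out, and, chosen after the data were seen, the highest score position of each group left out or taken as a block, and the peaks of wild type vehicle replicate 2 and wild type TAK-418 replicate 4 not counted.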

Additional observations from a re-analysis of the deposited data

Results flagged for a closer look

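Of the 80 groups of 4 scores at the listed regions of these genes, 9 had a highest score set apart from the other 3 by more than 0.829 of the group's range. In heterozygote TAK-418 these were 196 at Ino80 in the comparison with heterozygote vehicle, and 258 at Ino80 and 265 at Brpf1 in that with wild type vehicle. In heterozygote vehicle they were 248 at Chd4 in the comparison with TAK-418 and 139 at Setd2 in that with wild type vehicle. In wild type TAK-418 they were 563 at Crebbp, 490 at Kansl1, 443 at Arid1b and 421 at Smarce1. No lowest score stood apart in this way. All 9 were the score position that was the highest at most gene ends of its group, so the 9 are not independent of each other. The limit of 0.829 would be passed by about 1 in 20 groups of independent, normally distributed values. These scores are not such values, so 1 in 20 is not their chance rate.

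The number of these genes with an end peak also set 1 library apart in a pair of groups. It was 39 in heterozygote TAK-418 replicate 3, where the other 3 libraries had 0 or 1, and 38 in heterozygote vehicle replicate 2, where the other 3 had 0.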

How the results depend on the processing

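The 39 genes with an end peak became 36 to 40 under another window, overlap or −log10 q threshold, 28 at the start alone, where 31 genes have a strand, and 19 without the long lists; the 37 with one in every long list became 18 with −log10 q of at least 5. With −log10 p of at least 3 the lists kept 4 of the 11 lower genes in heterozygote vehicle, 4 of the 13 in treated heterozygotes and 3 of the 10 higher with TAK-418 in wild types. The 3 lower with TAK-418 in wild types became 1 at −log10 p of 2 and 0 at 3. In heterozygotes the 2 lower with TAK-418 became 1 within 1 kb, 4 within 5 kb, 1 at −log10 p of 2 and 0 at 3, and the 1 higher became 2 within 5 kb and 0 at −log10 p of 2, of 3 or at the start alone, since Chd7 has no strand here. The 8 regions limma called in treated heterozygotes became 0 with pseudocount 10, centred positions, a trend or without the highest position, and 0 to 11 without 1 score position; leaving 1 out gave 0 to 1 call with TAK-418 in heterozygotes, 0 to 3 in wild types and 0 in heterozygote vehicle. None of these calls lay at the 42 genes. Of the 40 gene regions compared, 36 kept their direction without any 1 position, a count largely built in by listing from the same scores. The other 4, all with TAK-418 in wild types, ranged from -0.10 to 0.61 at Asxl1, -0.0905 to 0.60 at Dnmt3b, -0.37 to 0.38 at Kansl1 and -0.0435 to 0.72 at Srcap, and 39 kept it without the highest positions, Kansl1 turning to -0.25. The causes were not tested. With the highest position as a block, chosen after the data were seen, the 8 calls also became 0, and the other 3 comparisons stayed at 0. The 12 genes with a peak in fewer heterozygote vehicle than wild type vehicle libraries became 1 without the peaks of wild type vehicle replicate 2, and the 11 of treated heterozygotes became 1, with 1 in more in place of 0. With TAK-418 in wild types, 7 in more and 8 in fewer became 11 and 1 without that library, 1 and 12 without wild type TAK-418 replicate 4, and 1 and 1 without both. Over the 11912 genes tested the shares were 10.4% and 4.45%, 0.982% and 19.2%, and 1.62% and 5.58%. Fisher's test called 0 genes at an adjusted p under every setting, which with all libraries says nothing, as stated. No paired analysis was possible because each mouse has its own number, the groups share none, and the scores name no library. Unknown depth limits every peak count in the short lists.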

Other observations

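Of the remaining motifs searched in the promoter entries of these genes, on both strands, CCAAT (bound by NF-Y) lay in 37.5% of the 40 entries and in 38.1% of all 21005. CCGGAAG, an ETS motif, lay in 7.5% and 11.7%, and CACGTG, an E-box, in 5.0% and 7.90%, at Bptf and Dnmt3a. TGACGTCA, the cyclic AMP response element, lay in 2.5% and 2.25%, the single entry being of Phf8. GCGCATGCG, bound by NRF1, lay in 7.5% and 2.37%, in 3 entries of Dnmt1 and Smarcb1, and AAGATGGCG, bound by YY1, in 5.0% and 1.85%, at Bptf and Phf8. Each of these motifs but CCAAT rests on 1 to 3 entries of these genes, and no share was tested.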
